A study of Homo sapiens with 3 samples.

Results

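The epithelial antimicrobial and acute phase genes described here encode 10 secreted defense proteins of mucosa and skin, LCN2, LTF, SLPI, PI3, SAA1, SAA2, PIGR, DEFB1, DEFB4A and RNASE7. They were taken as a named list, by a rule that holds no measured value but was set with earlier results of these data known. All 10 were found among the 29689 gene symbols of the deposited table. The table holds 3 RNAseq libraries of tumors formed by the human TNBC cell line SUM-149 in female Nu/Nu mice, in the mammary fat pad. The age of the mice is not given in the sources used here. The groups are vehicle, CDK2i (dinaciclib, 10 days) and EZH2i (labelled EPZ6438, 10 days), with 1 library each, so nothing below has a replicate check and no p-value was computed. For SUM-149 xenografts a figure legend of the study names another EZH2 inhibitor, GSK343, while its methods for tumor-bearing mice name EPZ6438. The study's text does not say which of them the sequenced tumor received, so the drug behind the EZH2i library is taken from its label. Nude mice lack mature T cells but keep neutrophils, macrophages, fibroblasts and vessels. The reads were mapped to the human genome, and how reads of mouse origin were treated is not given in the sources used here.

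Epithelia that face microbes release proteins that starve, permeabilize or neutralize them. Lipocalin 2 (LCN2) binds bacterial siderophores and lactotransferrin (LTF) binds iron itself. SLPI and elafin (PI3) are inhibitors of neutrophil serine proteases with whey acidic protein (WAP) domains and direct antimicrobial activity. Serum amyloid A1 and A2 (SAA1, SAA2) are acute phase apolipoproteins, made mostly by liver and also by epithelia. The polymeric immunoglobulin receptor (PIGR) carries IgA across the epithelial layer, and β-defensin 1 (DEFB1), β-defensin 2 (DEFB4A) and RNase 7 (RNASE7) are cationic antimicrobial proteins. DEFB1 is known as a constitutively made peptide, while DEFB4A, LCN2 and the SAA genes are known targets of NF-κB and of C/EBP factors in epithelial cells exposed to IL-1, IL-17 or TNF.

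The members covered a wide range of expression in these tumors. PI3 was among the most abundant transcripts of each library, at 2630 FPKM in vehicle (rank 18 of all genes), 3753 FPKM in CDK2i (rank 8) and 1747 FPKM in EZH2i (rank 17). FPKM is a number of fragments scaled to gene length and library size, so levels can be set side by side between genes. SLPI came next, followed by LCN2, SAA1 and RNASE7, in the same order in all 3 libraries, while the other 5 members lay below 2 FPKM throughout. PI3 alone made up 86.3%, 84.3% and 89.5% of the summed FPKM of the 10 members in vehicle, CDK2i and EZH2i. Together the members took 0.637%, 1.03% and 0.482% of all FPKM in the same libraries. In a bulk tumor sample, fewer cells that express a gene and less of its RNA per cell cannot be told apart.

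**Figure D1:**
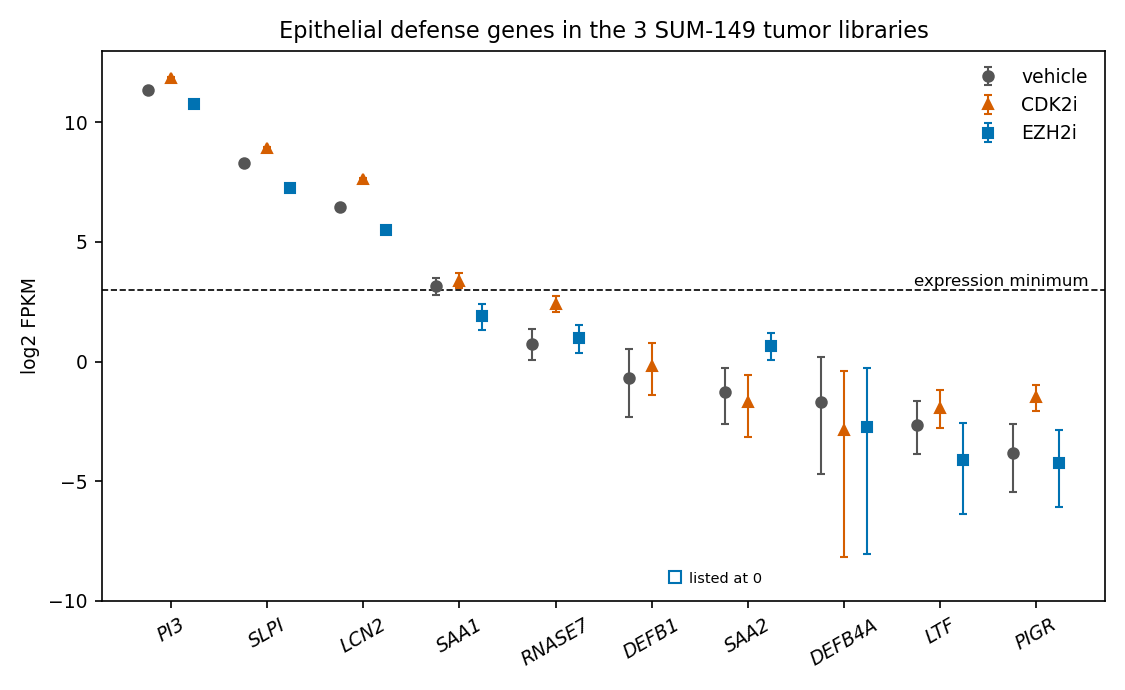
Level of the 10 genes (log2 FPKM, vertical axis) in the vehicle, CDK2i and EZH2i libraries, 1 point per library, with bars for the 95% Poisson counting interval and a dashed line at log2 FPKM 3. PI3, SLPI and LCN2 lie far above the line, SAA1 lies near it, and DEFB1 is listed at 0 in EZH2i.

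The libraries were compared as differences of log2 FPKM. Following the thresholds of the study, a gene counts as past the thresholds when it differs by a fold above 2 and its level in the higher library exceeds log2 FPKM 3, that is 8 FPKM. Only 4 of the 10 members reached this expression minimum in any library, namely PI3, SLPI, LCN2 and SAA1. In CDK2i against vehicle, 1 of these 4, LCN2, was past the thresholds as higher and 0 as lower, where 3.27% of 6632 genes were called higher and 8.07% lower. In EZH2i against vehicle, SLPI and SAA1 were past them as lower and 0 as higher, where 4.42% of 7414 genes were called lower and 8.93% higher. Between the treated tumors the members stood furthest apart, and all 4 were past the thresholds as lower in EZH2i than in CDK2i, where 6.53% of 7394 genes were called lower and 17.5% higher. The 3 comparisons use 3 libraries in pairs and are not independent of one another.

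**Figure D2:**
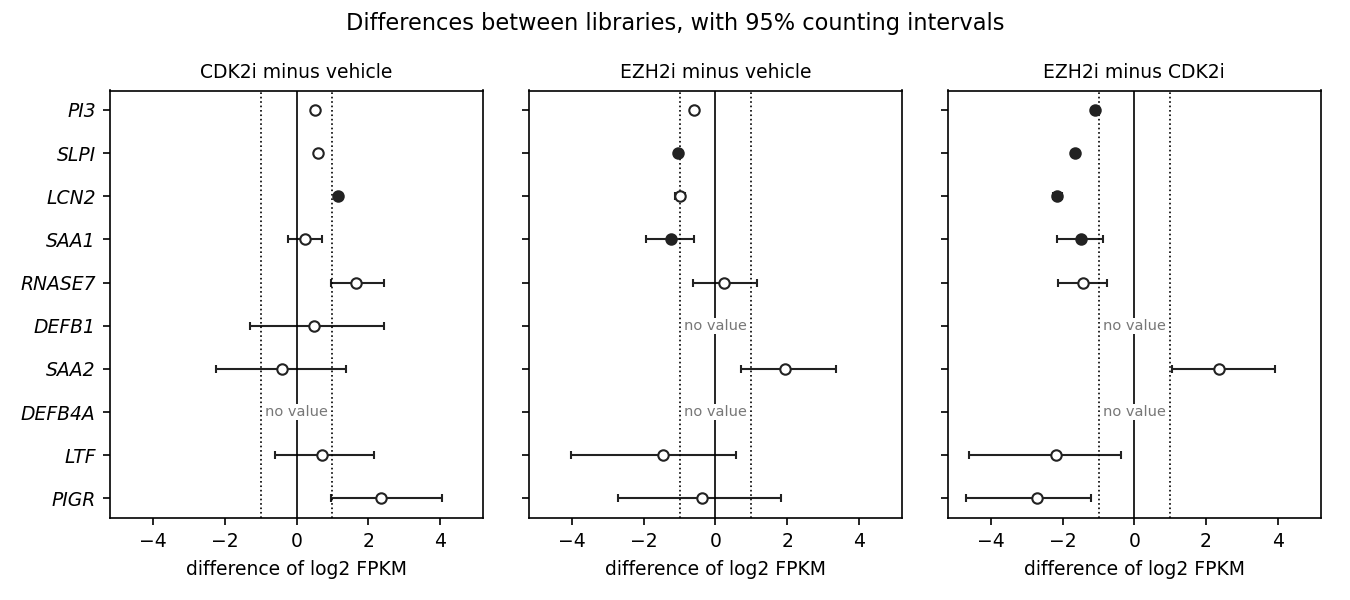
Difference of log2 FPKM between libraries (horizontal axis) for each member in the 3 comparisons, with 95% counting intervals, dotted lines at a fold of 2, and filled points for genes past the fold and expression thresholds. The filled points are LCN2 in CDK2i against vehicle, SLPI and SAA1 in EZH2i against vehicle, and PI3, SLPI, LCN2 and SAA1 in EZH2i against CDK2i.

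Expressed genes are those listed above 0 in all libraries whose mean log2 FPKM exceeds 1. Over the 5 expressed members (the 4 above and RNASE7), the median difference was 0.61 in CDK2i against vehicle, −0.99 in EZH2i against vehicle and −1.49 in EZH2i against CDK2i. The corresponding medians over all 11109 expressed genes were −0.11, 0.19 and 0.35, opposite in sign to the members' median with the deposited values. That opposition depends on the scaling. With the trend over GC content and transcript length removed, as described below, the medians over all expressed genes were 0.05, 0.01 and −0.04. Those of the members were then 0.89, −0.58 and −1.62. RNASE7, at 0.25 in EZH2i against vehicle, was the exception among the 5 members in that comparison. The order CDK2i above vehicle above EZH2i held for PI3, SLPI, LCN2 and SAA1, and also for the weakly expressed LTF, PIGR and DEFB1. The last 3 rest on few fragments. The counting intervals of SAA1, LTF and DEFB1 in CDK2i against vehicle, and of LTF and PIGR in EZH2i against vehicle, included 0. Among the expressed members 4 of 5 had this order, which was found in 14.3% of the 11109 expressed genes and in 17.1% of the 7576 genes that reached the expression minimum in at least 1 library.

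**Figure D3:**
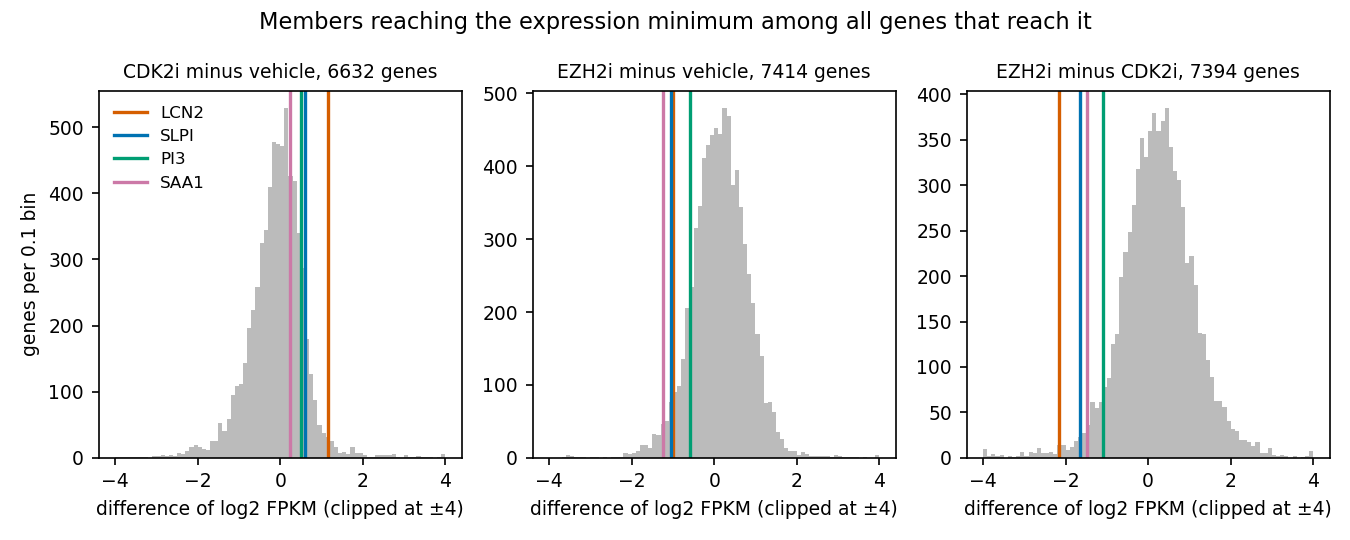
Distribution of the difference of log2 FPKM (horizontal axis) over all genes that reached the expression minimum (gray, number of genes per bin of 0.1), with vertical lines for LCN2, SLPI, PI3 and SAA1. The 4 lines lie at or right of the center in CDK2i against vehicle and in the left tail in EZH2i against CDK2i.

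Of the iron-withholding proteins, only LCN2 was expressed at a substantial level. LCN2 (ENSG00000148346, chromosome 9 of GRCh37, 130911350 to 130915732, plus strand) was at 89.1 FPKM in vehicle, at 199.7 FPKM in CDK2i and at 44.9 FPKM in EZH2i, values that stand for about 1226, 3135 and 645 fragments. The CDK2i tumor was the highest and the EZH2i tumor the lowest. LCN2 was 2.24-fold higher in CDK2i than in vehicle (log2 difference 1.17, 95% counting interval 1.07 to 1.26), above 97.6% of the genes compared. In EZH2i the difference from vehicle was −0.99 (−1.13 to −0.85), a fold of 1.98 that fell just short of the threshold. LCN2 was 4.45-fold lower in EZH2i than in CDK2i (−2.15, −2.28 to −2.03), with 98.9% of genes above it. These intervals are exact conditional binomial intervals and cover counting error only, not the difference between tumors.

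LCN2 is also the member with the fullest set of inflammatory promoter motifs among those with a promoter sequence in the RefSeq table (GRCh38.p14), which held 4 of the 10 members, LCN2, LTF, PIGR and RNASE7. The 250 bases before each start were searched on both strands for an NF-κB motif (GGG, any 4 bases, then TCC), a C/EBP motif (TTGCNNAA) and an AP-1 motif (TGANTCA). Of 35116 promoters of this length in the table, 19.9% held the NF-κB letters, 9.05% the C/EBP letters and 6.57% the AP-1 letters. LCN2 held all of them, RNASE7 the C/EBP and AP-1 letters, 1 of the 3 LTF promoters the C/EBP letters and PIGR none. The sequences of LCN2 (chr9:128149203-128149452, plus strand) and RNASE7 (chr14:21042112-21042361, plus strand), the matched members with the highest levels, are shown 5′ to 3′ with every match in capitals.
LCN2: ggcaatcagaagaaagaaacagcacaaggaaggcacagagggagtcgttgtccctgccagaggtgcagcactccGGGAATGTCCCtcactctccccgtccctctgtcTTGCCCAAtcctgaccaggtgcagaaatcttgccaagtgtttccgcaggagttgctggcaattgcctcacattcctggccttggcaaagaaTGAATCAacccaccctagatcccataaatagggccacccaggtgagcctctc
RNASE7: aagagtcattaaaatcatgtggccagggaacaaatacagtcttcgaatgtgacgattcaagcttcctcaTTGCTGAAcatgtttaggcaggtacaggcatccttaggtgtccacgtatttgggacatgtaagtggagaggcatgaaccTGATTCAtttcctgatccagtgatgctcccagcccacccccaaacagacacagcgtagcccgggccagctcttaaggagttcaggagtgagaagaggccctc
In LCN2 the NF-κB letters were matched on the plus strand at positions −176 to −167 from the start and, overlapping, on the minus strand at −175 to −166, the C/EBP letters at −143 to −136 and the AP-1 letters at −52 to −46. In RNASE7 the C/EBP letters stood at −181 to −174 and the AP-1 letters at −102 to −96. A match describes letters in a window and was not tied to binding in these tumors.

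LTF (ENSG00000012223, chromosome 3 of GRCh37, 46477136 to 46526724, minus strand), the iron-binding protein of milk and of neutrophil granules, was close to the detection limit. It was at 0.160, 0.263 and 0.0575 FPKM in vehicle, CDK2i and EZH2i. The smallest whole numbers of fragments that give these values are 8, 15 and 3. The CDK2i tumor was again the highest. The interval of the difference included 0 in CDK2i against vehicle (0.72, −0.61 to 2.16) and in EZH2i against vehicle (−1.48, −4.03 to 0.58), so neither was detectable at this depth, and it ran from −4.62 to −0.37 in EZH2i against CDK2i.

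The protease inhibitors SLPI and PI3 had the same order, each highest in CDK2i and lowest in EZH2i. PI3 (ENSG00000124102, chromosome 20 of GRCh37, 43803543 to 43805185, plus strand) encodes elafin, which transglutaminase can anchor in the epithelial matrix. Its levels given above differ by 0.51 in CDK2i against vehicle, −0.59 in EZH2i against vehicle and −1.10 in EZH2i against CDK2i on the log2 scale. With about 24325, 39584 and 16870 fragments, the counting error of each was at most 0.03. Only the difference between the treated tumors, 2.15-fold, exceeded the fold of 2.

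SLPI (ENSG00000124107, chromosome 20 of GRCh37, 43880880 to 43883205, minus strand), the secretory leukocyte protease inhibitor of airway and skin, lies 75.7 kb from PI3. The vehicle tumor held 317 FPKM, the CDK2i tumor 484 FPKM and the EZH2i tumor 153 FPKM. SLPI was 1.52-fold higher in CDK2i than in vehicle (0.61, 0.54 to 0.67), below the threshold, and 2.07-fold lower in EZH2i than in vehicle (−1.05, −1.14 to −0.96), just past it. In EZH2i against CDK2i it was 3.15-fold lower (−1.66, −1.74 to −1.58), with 97.9% of genes above it. PI3 stood 8.29, 7.76 and 11.4 times above SLPI in vehicle, CDK2i and EZH2i. SLPI differed more than PI3 in EZH2i against vehicle, with counting intervals that do not overlap, and the same held in EZH2i against CDK2i.

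The serum amyloid genes stood in opposite directions in the EZH2i tumor, SAA1 below and SAA2 above its level in vehicle. SAA1 (ENSG00000173432, chromosome 11 of GRCh37, 18287807 to 18291524, plus strand) was at 8.83, 10.4 and 3.72 FPKM in vehicle, CDK2i and EZH2i, from at least 66, 89 and 29 fragments. The vehicle and CDK2i tumors did not differ beyond counting error (0.24, −0.23 to 0.72). SAA1 was 2.37-fold lower in EZH2i than in vehicle (−1.25, −1.93 to −0.60) and 2.81-fold lower than in CDK2i (−1.49, −2.15 to −0.87). SAA2 (ENSG00000134339, chromosome 11 of GRCh37, 18260770 to 18270215, minus strand) was at 0.408, 0.307 and 1.56 FPKM, from at least 7, 6 and 28 fragments. It never reached the expression minimum, but it was the only member with its highest value in EZH2i, 3.83-fold above vehicle (1.94, 0.71 to 3.38). SAA1 thus stood 21.6, 34.1 and 2.38 times above SAA2 in vehicle, CDK2i and EZH2i. The sum of both genes was 9.24, 10.8 and 5.28 FPKM.

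The SAA1 and SAA2 values are uncertain because the genes are near-identical copies. In the canonical transcripts of the GENCODE 44 annotation, both coding sequences were 369 bases long and differed at 11 positions, an identity of 97.0%. Of the 50-base stretches of the SAA1 coding sequence, 42.8% occur unchanged in SAA2. Within the coding sequence only fragments that cover differing bases can tell the genes apart, and the untranslated parts of the transcripts were not compared. Bases 205 to 324, counted from the first base of the start codon, hold 10 of the 11 differences. They are shown 5′ to 3′ with the differing bases in capitals.
SAA1: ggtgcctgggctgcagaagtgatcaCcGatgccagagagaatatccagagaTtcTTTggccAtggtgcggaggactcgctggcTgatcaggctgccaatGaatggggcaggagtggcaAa
SAA2: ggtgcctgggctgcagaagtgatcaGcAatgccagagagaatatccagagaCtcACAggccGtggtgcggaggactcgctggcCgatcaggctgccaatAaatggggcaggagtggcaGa
How fragments that fit both genes were counted is not given in the sources used here. In the annotation SAA2 also overlaps SAA2-SAA4, a readthrough gene on the same strand. SAA4, its other part, was listed at 0 in all 3 libraries.

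PIGR (ENSG00000162896, chromosome 1 of GRCh37, 207101867 to 207119811, minus strand), the receptor for polymeric IgA, was barely expressed in vehicle and higher in CDK2i. Its levels were 0.0696, 0.354 and 0.0534 FPKM in vehicle, CDK2i and EZH2i, from at least 5, 29 and 4 fragments. The vehicle and EZH2i tumors did not differ beyond counting error (−0.38, −2.72 to 1.83). PIGR was 5.09-fold higher in CDK2i than in vehicle (2.35, 0.96 to 4.07), the largest fold of any member in that comparison, and 6.63-fold lower in EZH2i than in CDK2i (−2.73, −4.70 to −1.22). With a pseudocount of 1 FPKM the difference of PIGR in CDK2i against vehicle shrinks to 0.34, since all its levels lie below 1 FPKM.

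RNASE7 (ENSG00000165799, chromosome 14 of GRCh37, 21510475 to 21512393, plus strand), a ribonuclease of the outer skin with antimicrobial activity, was at 1.67, 5.30 and 1.98 FPKM in vehicle, CDK2i and EZH2i. At least 21, 76 and 26 fragments stand behind these values. It was 3.17-fold higher in CDK2i than in vehicle (1.67, 0.95 to 2.44), below the expression minimum, while vehicle and EZH2i did not differ beyond counting error (0.25, −0.64 to 1.15). In EZH2i it was 2.68-fold lower than in CDK2i (−1.42, −2.12 to −0.76).

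The β-defensins were at the limit of detection. DEFB1 (ENSG00000164825, 6728114 to 6735458 on the minus strand of chromosome 8, GRCh37) was at 0.623 FPKM in vehicle and 0.874 FPKM in CDK2i, from at least 5 and 8 fragments. It was listed at 0 in EZH2i, where 0 fragments allow up to 3. DEFB4A (ENSG00000171711, 7752199 to 7754238 on the plus strand of chromosome 8, GRCh37) was at 0.314, 0.137 and 0.1502 FPKM, which is 2, 1 and 1 fragments, too few for a fold. Its near-identical copy DEFB4B was listed at 0 in all 3 libraries, and the counting of fragments that fit both copies is not given in the sources used here.

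All members were compared across libraries that differ in how the change of a gene runs with its length and base composition. Over 10317 expressed genes with a matched transcript, the Spearman correlation of the change with transcript length was 0.493 in EZH2i against vehicle, 0.104 in CDK2i against vehicle and 0.314 in EZH2i against CDK2i. With GC content it was −0.572, 0.0357 and −0.457, so short and GC-rich transcripts tended to be lower in EZH2i. These are correlations across genes of the same libraries, given as a description. The transcripts of the 4 members above the expression minimum are short, 596 nucleotides for SLPI, 551 for PI3, 820 for LCN2 and 518 for SAA1, with 52.2% to 56.0% GC. With the trend over GC content and length removed, the differences in EZH2i against vehicle were −0.58 for LCN2, −0.74 for SLPI, −0.20 for PI3 and −0.84 for SAA1. None of these was past a fold of 2, so both calls of members in EZH2i against vehicle are lost. In EZH2i against CDK2i they were −2.001, −1.63, −0.98 and −1.35, and LCN2, SLPI and SAA1 were past the thresholds, where 7.30% of 7141 genes were called lower. In CDK2i against vehicle they were 1.42, 0.89, 0.78 and 0.51, and LCN2 was past the thresholds, where 4.28% of 6406 genes were called higher.

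**Figure D4:**
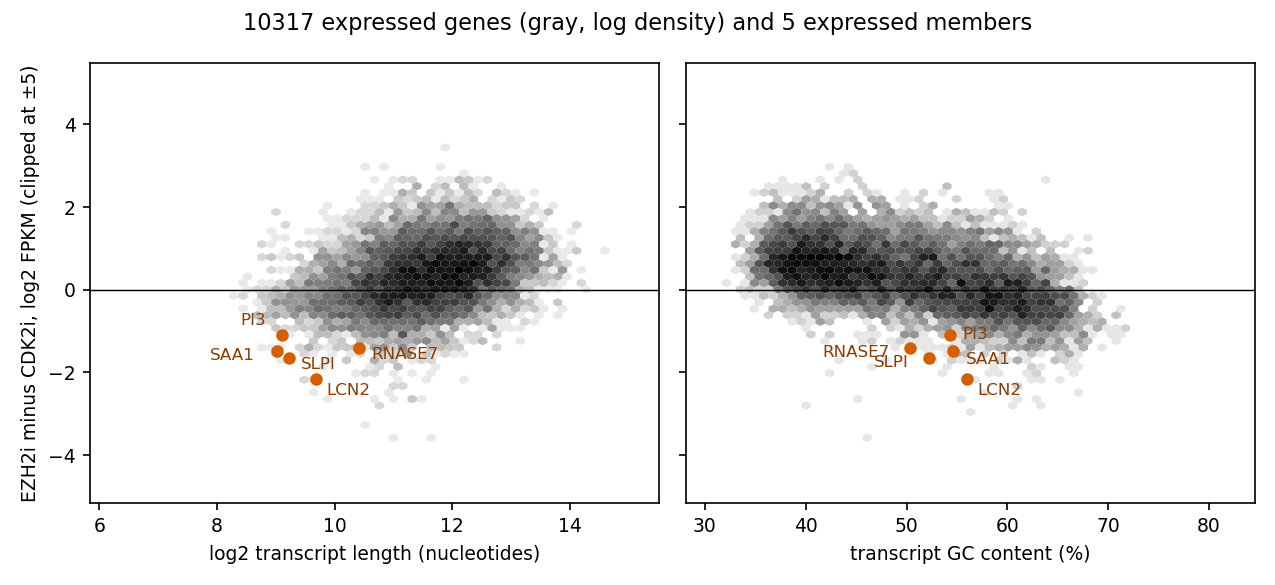
Difference of log2 FPKM in EZH2i against CDK2i (vertical axis) against log2 transcript length (left) and transcript GC content in percent (right) for 10317 expressed genes (gray, darker for more genes) and 5 expressed members (orange). The members lie among the short transcripts and below most genes of like length or GC content.

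Other antimicrobial genes, in a list that holds none of the members but was also chosen with earlier results known, showed a similar division. Of 32 genes listed, 29 were in the table, and 10 reached the expression minimum in each of the comparisons. In CDK2i against vehicle 3 of the 10 were past the thresholds as higher and 0 as lower. In EZH2i against vehicle 2 were higher and 5 lower, and in EZH2i against CDK2i 0 were higher and 6 lower. With the trend over GC content and length removed, the 5 lower genes in EZH2i against vehicle became 3, and S100A9 (−0.88) and PGLYRP3 (−0.98) lost the call. The median difference of the 14 expressed genes was 0.52, −0.75 and −1.49 in these comparisons, beside −0.11, 0.19 and 0.35 over all expressed genes. Of the 14, 13 were lower in EZH2i than in CDK2i, as were 33.0% of the 11109 expressed genes.

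The calprotectin subunits S100A8 and S100A9, which withhold zinc and manganese from microbes, and psoriasin (S100A7) had their lowest values in EZH2i. S100A8 was at 9.54, 9.57 and 7.88 log2 FPKM in vehicle, CDK2i and EZH2i. S100A9 was at 10.09, 10.51 and 8.78, and S100A7 at 8.27, 8.29 and 6.92. With the deposited values all 3 were past the thresholds as lower in EZH2i against vehicle and against CDK2i. The chemokines CXCL14 and CCL20, which have antimicrobial activity of their own, were instead past them as higher in both treated tumors, by 2.71 and 2.44 in CDK2i and 1.09 and 1.57 in EZH2i. Named after their values were seen, the peptidoglycan recognition proteins PGLYRP3 and PGLYRP4 had the order of LCN2, with log2 FPKM of 3.61, 4.88 and 2.60 for PGLYRP3 and 3.91, 4.51 and 2.68 for PGLYRP4 in vehicle, CDK2i and EZH2i.

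**Figure D5:**
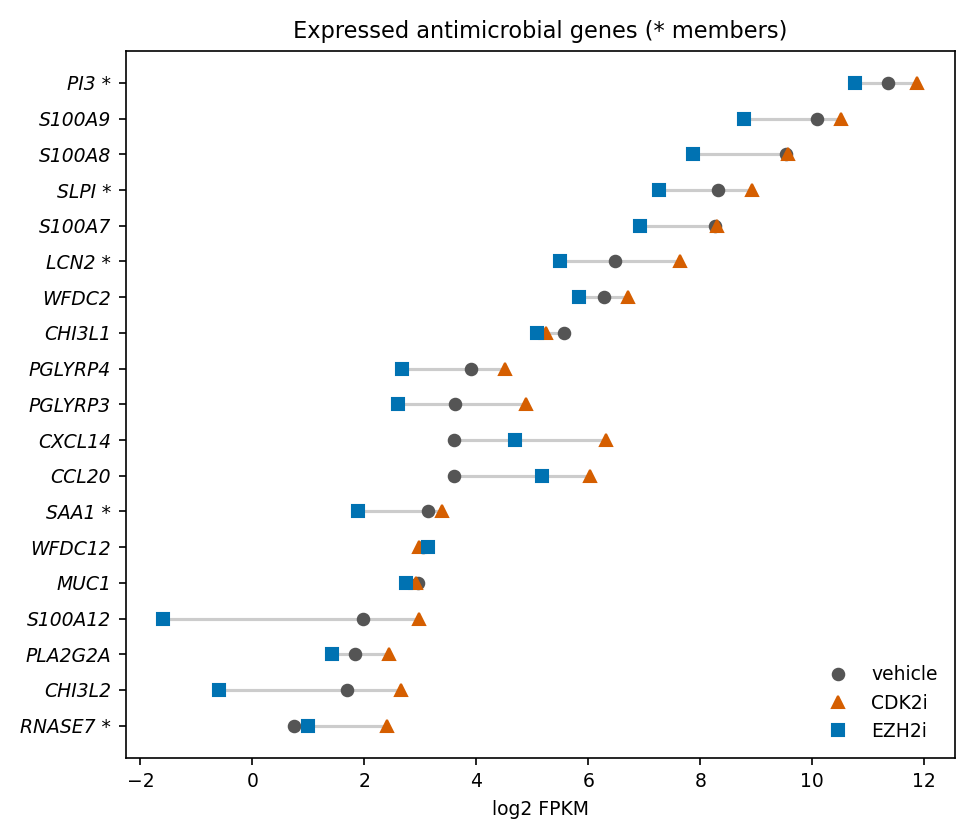
Levels (log2 FPKM, horizontal axis) of the 5 expressed members (marked with an asterisk) and the 14 other expressed antimicrobial genes in the vehicle, CDK2i and EZH2i libraries, 1 symbol per library. The EZH2i symbol lies left of the CDK2i symbol for all but WFDC12, and the member RNASE7, CXCL14 and CCL20 have their lowest value in vehicle.

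Other acute phase genes, in a list without SAA1 and SAA2, were mixed. Of 18 listed genes 15 were in the table and 5 were expressed, with a median difference of −0.61 in CDK2i against vehicle, −0.40 in EZH2i against vehicle and 0.34 in EZH2i against CDK2i. TNFAIP6, a hyaluronan-binding protein of inflamed tissue, was past the thresholds as lower in CDK2i against vehicle (−2.12), and the protease inhibitor SERPINA3 in EZH2i against vehicle (−1.32). These were the only genes of the list past the thresholds in either comparison with vehicle. SERPINA1, which encodes α1-antitrypsin, had the order of SAA1, at 3.84, 4.02 and 3.19 log2 FPKM in vehicle, CDK2i and EZH2i, with no difference past the fold threshold.

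Genes that induce or sense the inflammatory signals upstream of the members differed in other ways. Of the 28 listed cytokines and receptors, 18 were expressed, and 4 were past the thresholds as higher in CDK2i against vehicle and 5 in EZH2i against vehicle, with 0 lower in both. The 5 became 3 with the trend over GC content and length removed. IL17C, an epithelial cytokine that acts on epithelial cells, was at −0.55, 3.47 and 0.67 log2 FPKM in vehicle, CDK2i and EZH2i. TNF was at 0.74, 4.08 and 2.43, and LIF, a cytokine of the IL-6 family, at 2.86, 6.13 and 3.51, so all of these had their highest value in CDK2i. IL1A and IL1B had theirs in EZH2i, where LCN2, SLPI, PI3 and SAA1 were lowest. IL1A was at 1.17, 2.08 and 4.51, and IL1B at 2.45, 3.34 and 5.58.

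Among 17 transcription factors of the NF-κB, C/EBP, STAT3 and epithelial ETS families, 14 were expressed, 1 was past the thresholds as higher in CDK2i against vehicle, and 2 were higher and 1 lower in EZH2i against vehicle. With the trend removed, the 1 in CDK2i against vehicle became 3. ELF3, an epithelial ETS factor, was at 3.70, 5.43 and 1.85 log2 FPKM in vehicle, CDK2i and EZH2i. It was the only factor of the list past the thresholds in opposite directions (1.73 and −1.85), and its difference of −3.58 in EZH2i against CDK2i was larger than that of any expressed member. NFKBIZ, which encodes the IκBζ cofactor of NF-κB, and GRHL3, a factor of epidermal differentiation, were past them as higher in EZH2i (1.504 and 1.65). CEBPB was at 7.97, 7.65 and 7.57, and its differences stayed below the fold threshold.

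Of 20 listed partners and targets of the member proteins, 15 were in the table and 7 were expressed, 3 of them past the thresholds as higher in CDK2i against vehicle and 1 in EZH2i against vehicle, with 0 lower. MMP9, whose protein forms a complex with lipocalin 2, was at 4.33, 6.67 and 5.82 log2 FPKM in vehicle, CDK2i and EZH2i. The epidermal proteases KLK5 and KLK7 were at 1.44 and 2.40 in vehicle, 3.45 and 3.73 in CDK2i, and 1.39 and 1.28 in EZH2i. Neutrophil elastase (ELANE), a main target of SLPI and elafin, was at −1.52 in vehicle and listed at 0 in both treated tumors.

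Markers of the tumor cells and of other cells were read beside these values. All 11 basal and epithelial markers were above the expression minimum in every library, with KRT14 at 11.26, 12.61 and 11.31 log2 FPKM in vehicle, CDK2i and EZH2i. KRT5, KRT14, KRT17 and KRT6A, the keratins of basal and activated epidermis, were past the thresholds as higher in CDK2i against vehicle (1.17 to 1.35) and as lower in EZH2i against CDK2i (−1.24 to −1.80). In EZH2i against vehicle KRT19 was past them as lower (−1.24), and EGFR (1.05) and TP63 (1.13) as higher, and with the trend over GC content and length removed 0 of the 11 markers were past them in that comparison. The summed level of the 11 markers was 7677, 16387 and 6799 FPKM, and its part in the differences of the members was not tested. All 10 human neutrophil markers were in the table and none reached the minimum. Their sum was 9.21, 10.2 and 0.948 FPKM, with MPO, ELANE and AZU1 below 0.4 FPKM or listed at 0. S100A12, also made by keratinocytes, held 3.93, 7.90 and 0.332 FPKM of these sums. FCGR3B held 1.98, 1.30 and 0.0748 FPKM of them. PRTN3 was at 1.26 FPKM in vehicle and listed at 0 in both treated tumors. The 6 macrophage markers found summed to 8.77, 9.07 and 3.94 FPKM, mostly from CD14 (8.02, 7.95 and 3.15 FPKM). Lymphocyte markers summed to at most 0.212 FPKM (5 of 9 found) and endothelial markers to at most 0.833 FPKM (3 of 5 found), and the 8 fibroblast markers to 24.5, 38.4 and 28.9 FPKM. Host cells of these tumors are mouse cells, and the reads were mapped to the human genome. The sums of human markers are therefore no measure of host cells. The part of host cells in the differences of the members was not tested.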

How the data were processed

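RNA of 1 SUM-149 tumor library per group (vehicle, CDK2i, EZH2i) was sequenced. The authors deposited log2 FPKM per gene symbol; the submitters' processing notes name CASAVA, STAR and hg19, and the counting tool, gene lengths and versions are not given in the sources used here. A value of −9 stands for an FPKM of 0. Columns were matched to samples by their description labels, and 0 further sample columns were left unused.

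Differences of log2 FPKM were taken without a pseudocount. Low values lie on whole fragments: 96.0% of 1841 genes below log2 FPKM −2 fit numbers of at most 20 within 0.1%. Merged exon lengths of GENCODE 44 (GRCh37) then gave depths of 16.8, 19.1 and 17.5 M in vehicle, CDK2i and EZH2i (M, 1000000 fragments). These depths rest on 413 of 2256 genes tried, those near the most frequent estimate. Fragment numbers are the smallest that fit (up to 120), or, for LCN2, SLPI and PI3, estimates from the canonical transcript. Poisson and conditional binomial (Clopper-Pearson) intervals at 95% cover counting error only. The GC and length trend was a polynomial of degree 3 in each, fitted over expressed genes without ribosomal protein genes; 92.9% of expressed genes had both properties.

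With 1 library per group no test was run, and the p-value cutoff that the study used beside its fold and expression thresholds was not applied. The members, the lists of related genes, the thresholds and the alternatives were chosen with earlier results of these data known. Named were all members, genes of the pathway lists past the thresholds in a comparison with vehicle (the 5 largest where over 5 passed), and the defining markers with the highest levels. CEBPB, ELANE, PGLYRP3 and PGLYRP4, the markers EGFR, TP63, MPO and AZU1, and the other acute phase gene SERPINA1 were named outside this rule, after their values were seen. The calculations were tested on simulated data. Python 3.11.15, numpy 2.4.6, pandas 2.3.3 and scipy 1.17.1 were used.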

Additional observations from a re-analysis of the deposited data

How the results depend on the processing

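No paired analysis was possible because each group holds 1 library. Other settings changed how many members were past the thresholds. Shares over all genes were not taken under these settings, except with the trend removed, so the counts stand without that comparison. In CDK2i against vehicle 1 member became 2 with a fold above 1.5, 0 with a fold above 3, 2 with a minimum of log2 FPKM 1, and 4 (3 higher and 1 lower) with no expression minimum. In EZH2i against vehicle 2 became 3 with each library centred on its median expressed gene and 1 with equal summed FPKM. The count was 0 with the trend over GC content and transcript length removed, 4 with a fold above 1.5 and 0 with a fold above 3. It was 1 with a minimum of log2 FPKM 5, and 6 (1 higher and 5 lower) with no expression minimum. In EZH2i against CDK2i 4 became 2 with a fold above 3 and 9 (1 higher and 8 lower) with no expression minimum. There it was 5 with a minimum of log2 FPKM 1 and 3 with a minimum of log2 FPKM 5. The counts with no expression minimum take in members for which no fold is given above. These are DEFB4A in both comparisons with vehicle, and DEFB1, listed at 0 in EZH2i, in both comparisons of EZH2i. PI3 was not past the thresholds in EZH2i against CDK2i with the trend removed (−0.98) or with equal sums of FPKM that leave out ribosomal protein and mitochondrially encoded genes (−0.92).

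The median of the 5 expressed members in CDK2i against vehicle was 0.79 with each library centred on its median expressed gene, 0.76 with equal summed FPKM, 0.46 with equal sums that leave out those genes, and 0.89 with the trend removed. In EZH2i against vehicle it was −1.24, −0.75 and −0.58 with centring, equal sums and the trend removed. These scalings shift all genes of a library by −0.25 to 0.24 on the log2 scale. Pseudocounts of 0.1 and 1 left each median within the counting interval of the member that stood at the median. The same held for the members with no value at 0 in place of the 5 expressed ones (chosen after seeing the data). That set includes DEFB4A, which has too few fragments for a fold. Under the pseudocounts, the scalings and the trend removal, the differences of single members kept their sign in 54 of 54 values in CDK2i against vehicle. The sign was kept in 47 of 48 in EZH2i against vehicle and in 48 of 48 in EZH2i against CDK2i. The exception was RNASE7 in EZH2i against vehicle, at −0.00 after centring. A pseudocount cannot change a sign, and the scalings shift all genes of a library alike by small amounts, so this tally is no test of direction. Depth limits SAA2, LTF, PIGR, DEFB1 and DEFB4A, each with under 30 fragments per library by the smallest fitting number.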

Other observations

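PI3 and SLPI lie in a cluster of WAP domain genes on chromosome 20 of GRCh37, and the expressed genes of that cluster were not alike. Between 43719855 and 44471915 the annotation holds 32 protein-coding genes, 25 of them in the table and 11 above log2 FPKM 3 in at least 1 library. WFDC5, a WAP domain gene at 43738093 to 43743815, was at 28.8, 61.2 and 22.9 FPKM in vehicle, CDK2i and EZH2i, a difference of 1.09 in CDK2i against vehicle and −1.42 in EZH2i against CDK2i. WFDC2, which encodes the secreted protein HE4 and lies at 44098393 to 44110172, had the order of PI3 and SLPI at 77.8, 105 and 57.4 FPKM, with differences of 0.44 and −0.44 from vehicle. WFDC12, at 43752066 to 43753106 between WFDC5 and PI3, was at 8.30, 7.88 and 8.76 FPKM and differed by at most 0.15 between any pair of libraries. SDC4, the next expressed gene beyond SLPI and MATN4, encodes a cell surface proteoglycan and was at 126, 176 and 158 FPKM. WFDC3 was at 4.23, 3.40 and 0.913 FPKM, a difference of −2.21 in EZH2i against vehicle below the expression minimum. These genes were chosen for their position after the values of PI3 and SLPI were seen.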
